A study of Mus musculus with 24 samples.

Results

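The clustered protocadherins were taken as every gene of the count tables whose symbol named a Pcdha, Pcdhac, Pcdhb or Pcdhg isoform, which gave 57 of 55254 genes. The alpha cluster held 13 of them (11 alternate and 2 C-type isoforms), the beta cluster 22, and the gamma cluster 22 (12 A-type, 7 B-type and 3 C-type). No gene was named Pcdha10 in the tables. All 57 lay on the plus strand of mouse chromosome 18 in the GRCm38 annotation, the alpha cluster from 36930184 to 37187661, the beta cluster from 37264938 to 37524479 and the gamma cluster from 37661793 to 37841873. The libraries held nuclear RNA of the hippocampus of male C57BL/6N mice aged 6 months. Nuclei had been sorted on the neuronal antigen NeuN (Rbfox3) into NeuN+ (neuronal) and NeuN- (mostly glial) fractions. The genotypes were WT, Mutyh-/- (lacking a glycosylase that removes adenine paired with 8-oxoguanine), Ogg1-/- (lacking a glycosylase that removes 8-oxoguanine) and DKO (lacking both), with 3 libraries in each of the 8 groups. Nuclei of several mice were pooled. The study's methods speak in general of independent biological replicates but do not say for these RNA libraries whether the 3 of a group came from separate pools, so p-values measure the spread between these libraries, part of which may be technical. All NeuN+ libraries were sequenced on other lanes than the NeuN- libraries, so any effect of lane cannot be told apart from that of cell type, and in bulk nuclei fewer cells expressing a gene cannot be told apart from less RNA per cell.

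Clustered protocadherins are cell-surface cadherins that bind the same isoform on a neighbouring cell. Each neuron switches on a small, largely random set of the alternate promoters, which gives it a surface identity used to keep its own dendrites apart and to space axons. In the alpha and gamma clusters, every variable exon has its own promoter and is spliced to shared constant exons at the cluster's 3' end, whereas each beta gene is a single exon. Promoter choice is tied to DNA methylation laid down by Dnmt3b and to looping by CTCF and cohesin, and the C-type isoforms are used more constitutively. Ogg1 and Mutyh act on oxidised DNA, and the comparison with WT asks whether their absence changed the RNA of this locus.

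Total counts ranged from 56563586 to 96192142 per library. Mutyh RNA, one of the targets, was not reduced in the libraries that carry its name but higher: it measured 1.15, 1.28 and 1.27 CPM (counts scaled to the library's total and its TMM factor, a correction for composition) in WT NeuN+ libraries and 11.4, 11.5 and 9.87 CPM in those labelled Mutyh-/- (log2 difference 3.15 ± 0.15 (SE), edgeR adjusted p = 2.345e-08), and was also higher in those labelled DKO (log2 2.99, adjusted p = 3.059e-08). In NeuN- nuclei the log2 differences were 1.85 and 1.61 (adjusted p = 4.223e-05 and 0.0001044). Ogg1 RNA did not pass the test in any library group labelled Ogg1-/- or DKO (log2 0.05, 0.01, 0.02 and 0.09, adjusted p = 0.916, 0.978, 0.970 and 0.741 by edgeR). A count over the whole gene does not show which part of it was deleted, so these values do not check the genotypes, which are named here as the labels give them. The study's methods state that the sequenced mice were genotyped a further time from tail DNA. In WT, Rbfox3 measured 1459 ± 26.6 CPM in NeuN+ and 89.95 ± 8.81 CPM in NeuN- (SD, n = 3), 8 of 8 neuronal markers were called higher in NeuN+, and all markers of astrocytes (6), oligodendrocytes (5), their precursors (3), microglia (5) and endothelium (3) were called higher in NeuN-.

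The counts of the alpha and gamma members were nested. In 24 libraries, none of 792 differences between a member and the next one downstream was below 0, and Pcdha2 held 98.6 to 99.1% of the count of Pcdha1 in NeuN+ libraries. Each of these 35 members was counted over the stretch from its variable exon to the common 3' end, introns included, so the 35 deposited values repeat most of the same read pairs and are not separate measurements. Subtracting the count of the next member downstream gave the read pairs that touched only the stretch between 2 neighbouring starts, here called the interval. The last interval of each cluster, that of Pcdhac2 or Pcdhgc5, ran to the cluster's end and held the constant exons, and so also the spliced pairs that reach them. An interval also holds unspliced RNA started further upstream. Intervals were an alternative added after the data were seen, and deposited values and intervals are given side by side.

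In WT nuclei the 3 clusters were used at different levels in the 2 cell fractions. Counting each read pair once, the alpha cluster measured 251, 236 and 242 CPM in NeuN+ and 64.4, 68.8 and 69.5 CPM in NeuN-. The gamma cluster went the other way, at 288, 298 and 305 CPM in NeuN+ and 451, 437 and 460 CPM in NeuN-. The beta genes summed to 79.1, 77.4 and 70.4 CPM in NeuN+ and to 64.0, 66.5 and 61.9 CPM in NeuN-. The groups did not overlap in any of the clusters. Alpha reads made up 39.5 ± 0.997% of the reads of the 3 clusters in NeuN+ and 11.6 ± 0.468% in NeuN-, and gamma reads 48.2 ± 1.44% and 77.3 ± 0.856% (SD, n = 3). The ratio of alpha to gamma CPM was 0.82 ± 0.044 in WT NeuN+ and 0.150 ± 0.0074 in WT NeuN-, and its means stayed between 0.819 and 0.835 and between 0.143 and 0.152 over the 4 genotypes.

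**Figure D1:**
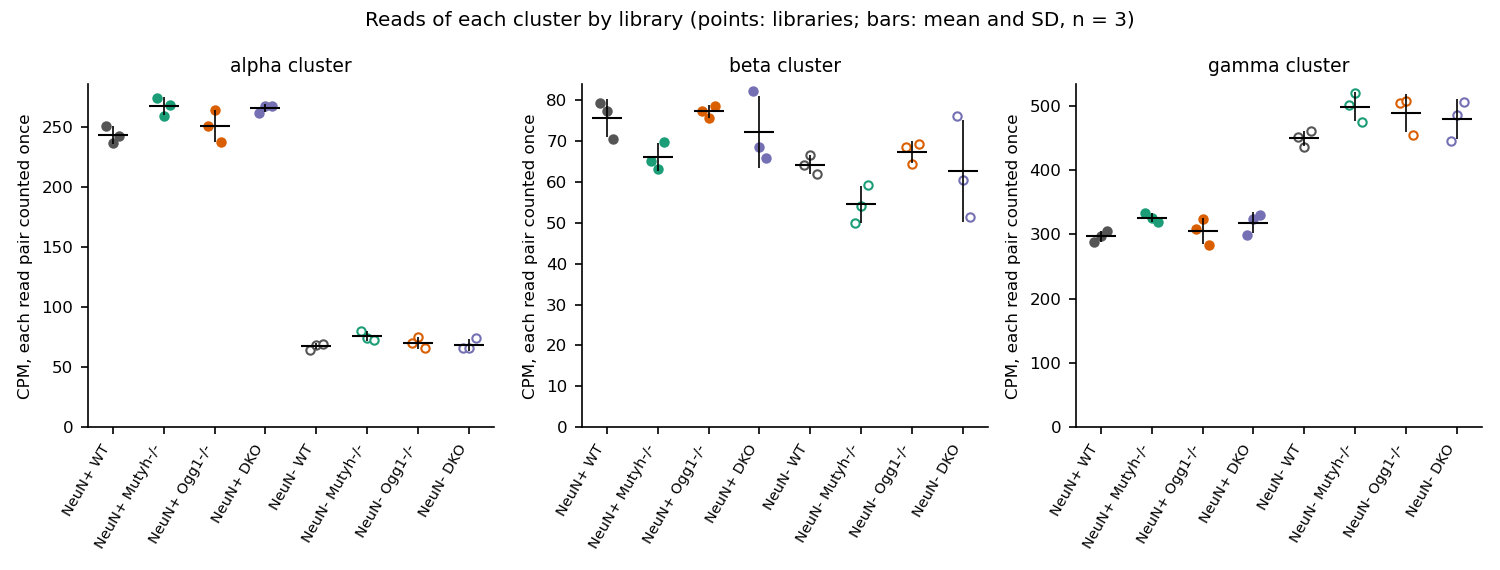
CPM of the alpha, beta and gamma clusters (vertical axes) in each library, by genotype and cell fraction (horizontal axis), with each read pair counted once. Points are libraries and bars are means ± SD (n = 3). Alpha was higher in NeuN+ (243.3 CPM against 67.6 in WT), gamma higher in NeuN- (449.5 against 297.0), and the beta sum close in both (75.6 and 64.1).

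All 13 alpha members were called higher in NeuN+ than in NeuN- of WT (adjusted p under 0.05 and a log2 difference above 1), beside 21.3% of all genes called in that direction. Their log2 differences ran from 1.84 for Pcdha5 to 2.28 for Pcdhac2, with a median of 1.86 beside -0.01 over all 33523 genes tested. Pcdhac2, the C-type isoform known for spacing serotonergic axons (37143503 to 37187657), measured 54.9, 53.1 and 52.0 CPM in NeuN+ and 10.4, 11.3 and 11.3 CPM in NeuN-, without overlap. The difference was 4.85-fold (95% interval 4.51 to 5.21, adjusted p = 4.415e-20). The other alpha C-type isoform, Pcdhac1 (37090013 to 37187657), measured 88.8, 82.8 and 83.0 CPM against 18.3, 19.3 and 20.2 CPM. It was 4.40-fold higher in NeuN+ (4.08 to 4.75, adjusted p = 2.368e-19). Pcdha12, the last alternate isoform, measured 149, 137 and 141 CPM against 36.4, 38.1 and 38.9 CPM and was 3.77-fold higher (3.5 to 4.06, adjusted p = 1.045e-18). The deposited counts of Pcdhac1 and Pcdha12 include those of the members downstream. By interval, Pcdhac1 was 3.81-fold (3.41 to 4.26) and Pcdha12 3.12-fold (2.86 to 3.39) higher. By intervals, the alpha members were all called higher in NeuN+ too, again beside 21.3% of all genes, from a log2 difference of 1.35 for Pcdha5 to 2.61 for Pcdha1. The Pcdha1 interval, before which no other alpha start lies, measured 2.37, 2.35 and 2.67 CPM in NeuN+ and 0.381, 0.414 and 0.411 CPM in NeuN-, a 6.12-fold difference (4.55 to 8.23).

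The level left in NeuN- nuclei was high beside that of neuronal markers. The alpha cluster in WT NeuN- stood at 27.8% of its NeuN+ level, while the 8 neuronal markers together stood at 8.33%, from 6.17% for Rbfox3 to 27.7% for Gad1, the enzyme of GABA synthesis. None of the neuronal markers was at 0 in all 3 libraries of any NeuN- group. Their summed level ran from 612 to 737 CPM in WT NeuN-. The part of neuronal RNA in the NeuN- values was not tested.

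None of the 22 gamma members was called in either direction on the deposited counts of WT, beside 21.6% of all genes called higher in NeuN-. All 22 were nevertheless lower in NeuN+ at an adjusted p under 0.05, beside 36.3% of all genes in that direction at any size, with log2 differences from -0.84 for Pcdhgc3 to -0.39 for Pcdhgc5. Because their counts are nested, these 22 largely repeat 1 difference. Intervals spread the members out, and 2 of the 22 were then called higher in NeuN-, beside 21.6% of all genes. Pcdhgc3, a C-type isoform that binds Axin1 and damps Wnt signalling (37806364 to 37841873), had an interval level of 12.3, 11.7 and 13.1 CPM in NeuN+ and 53.8, 51.0 and 58.4 CPM in NeuN-. The interval was 4.39-fold higher in NeuN- (3.91 to 4.94, adjusted p = 4.541e-16). The Pcdhga1 interval, before which no other gamma start lies, measured 3.29, 2.77 and 2.49 CPM against 7.41, 6.89 and 6.88 CPM and was 2.48-fold higher in NeuN- (2.16 to 2.84). Pcdhgc4, the isoform needed for survival of neurons, measured 4.56, 6.17 and 5.20 CPM against 10.5, 9.94 and 10.5 CPM by interval. Its 1.94-fold difference (1.70 to 2.21) lay just under the limit for a call in WT and passed it in the libraries labelled Ogg1-/- and DKO. The next intervals after Pcdhga1 were near even: Pcdhga2 at a log2 difference of 0.03 and Pcdhga3 at 0.09 (a fold of 0.964 to 1.18). The other 17 intervals lay between -0.25 and -0.74, so the gamma isoforms differed among themselves in their balance between the fractions.

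The Pcdhgc3 interval overlaps BC037039, a gene on the opposite strand (37805718 to 37807922) that measured 4.95 ± 0.808 CPM in NeuN+ and 29.2 ± 2.28 CPM in NeuN- of WT (log2 difference -2.56 ± 0.10 (SE), adjusted p = 4.838e-16). The counts were summed over both strands as far as nested genes show, since an inner gene exceeded the gene around it in 4 of 4226 opposite-strand pairs and 2 of 4526 same-strand pairs, so reads of the pair cannot be told apart. With the count of BC037039 subtracted, the Pcdhgc3 interval still measured 7.90, 7.19 and 7.23 CPM in NeuN+ and 23.3, 24.4 and 27.8 CPM in NeuN-, a ratio of 3.38. Other opposite-strand genes limit other members in the same way. In WT NeuN+, the count of Gm10545 came to 84.6% of the Pcdha11 interval and that of Gm37446 to 121% of Pcdhb12. Gm10544 lies within the Pcdhac2 interval, the last of alpha. Its count came to 29.5% of that interval in WT NeuN+ and 29.8% in WT NeuN-. Gm37165 and Gm26672 ran across several of the intervals from Pcdhga6 to Pcdhga12. The values of all these members are uncertain for this reason.

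**Figure D2:**
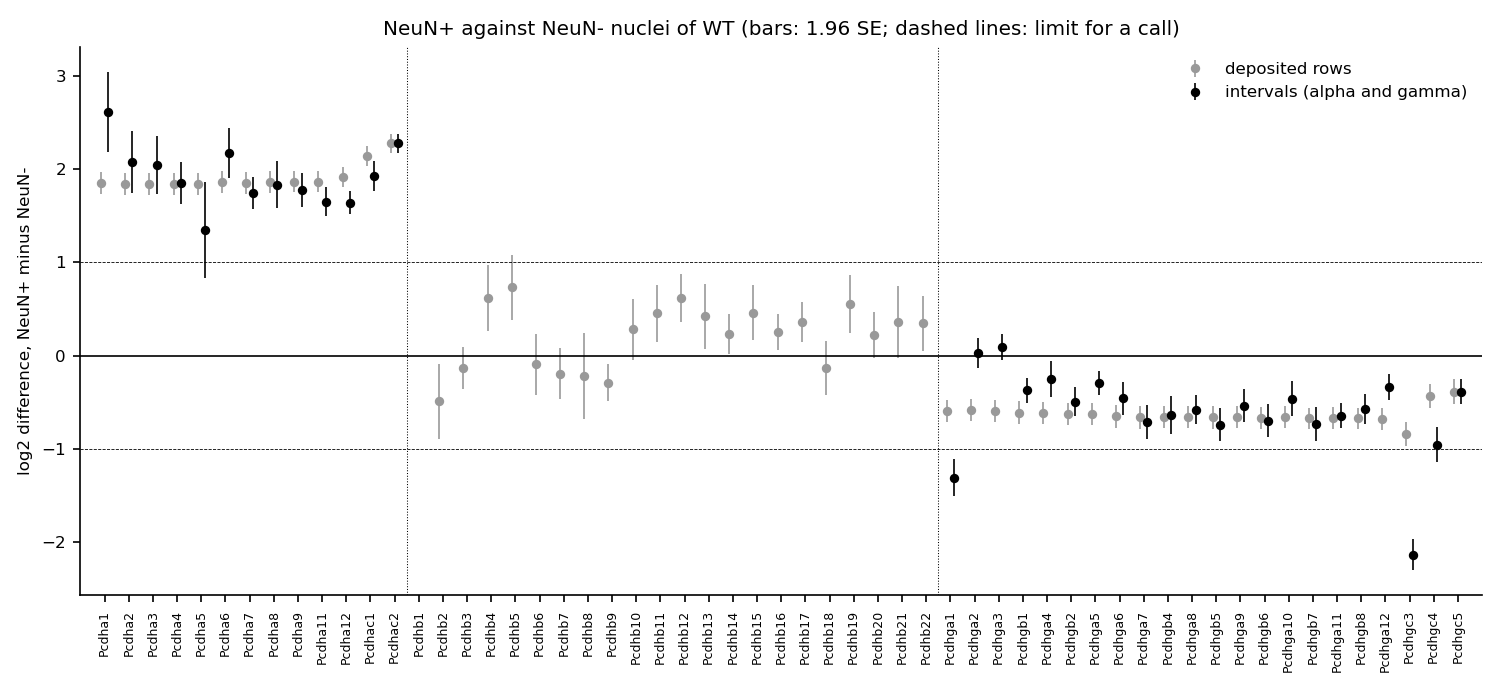
Log2 difference NeuN+ minus NeuN- in WT (vertical axis) for each member in chromosomal order (horizontal axis), from deposited counts (grey) and interval counts (black). Bars are 95% intervals and dashed lines mark the limit of 1 used for a call. Alpha members lie between 1.35 and 2.61, beta members around 0, and gamma members mostly below 0, with the intervals of Pcdhgc3 (-2.14) and Pcdhga1 (-1.31) lowest.

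The beta genes are separate single exons apart from Pcdhb21 and Pcdhb22, which overlap by 455 bases and share the read pairs there, and 21 of the 22 were tested. None was called between the fractions of WT by edgeR, beside 21.3 and 21.6% of all genes called higher in NeuN+ and NeuN-. At an adjusted p under 0.05 and any size, 10 were higher in NeuN+ and 2 higher in NeuN-, beside 36.1 and 36.3% of all genes. The median log2 difference was 0.28. Pcdhb5 showed the widest difference, at 1.90, 1.68 and 1.68 CPM in NeuN+ and 0.932, 1.19 and 1.06 CPM in NeuN-, 1.66-fold higher in NeuN+ (1.31 to 2.11, adjusted p = 0.000807). Pcdhb12 followed with a log2 difference of 0.62 ± 0.13 (adjusted p = 0.000216), Pcdhb4 with 0.61 ± 0.18 (adjusted p = 0.0044) and Pcdhb19 with 0.55 ± 0.16 (adjusted p = 0.0039). Pcdhb2 and Pcdhb9 were the 2 that were higher in NeuN-. For Pcdhb9 the libraries measured 2.90, 3.21 and 2.96 CPM in NeuN+ and 3.77, 3.98 and 3.36 CPM in NeuN-, without overlap (log2 -0.29 ± 0.10, adjusted p = 0.014). For Pcdhb2 they measured 1.25, 1.28 and 0.941 CPM against 1.37, 2.07 and 1.46 CPM, also without overlap (-0.49 ± 0.21, adjusted p = 0.0376). Pcdhb1, at 135 counts over all 24 libraries and 0 to 13 in a library, was too low to be tested. Pcdhb14, the longest beta gene, had the highest level per gene in both fractions, at 9.14 ± 0.764 CPM in NeuN+ and 7.78 ± 0.406 CPM in NeuN-.

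The same members stood out in the mutant genotypes, each compared on its own libraries. All 13 alpha members were called higher in NeuN+ in all 4 genotypes, with medians of 1.82, 1.85 and 1.99 in the libraries labelled Mutyh-/-, Ogg1-/- and DKO (beside 21.8, 21.7 and 20.8% of all genes). Pcdhb4 was called besides in Mutyh-/- (log2 difference 1.20). In the other direction only Pcdhgc3 of Ogg1-/- was called on deposited counts (-1.07), beside 22.1, 22.2 and 23.6% of all genes. By intervals, Pcdhgc3 and Pcdhga1 were called higher in NeuN- in all 4 genotypes, and 12 of the 13 alpha members higher in NeuN+ in all 4, the exception being Pcdha5 of DKO at a log2 difference of 0.91.

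Levels within a cluster were compared as CPM per kb of interval (beta: of gene), which takes length into account. In WT NeuN+ the alpha members ran from 0.273 ± 0.020 for Pcdha1 to 1.48 ± 0.11 CPM per kb for Pcdha8, with Pcdhac1 at 0.590 and Pcdhac2 at 1.21. In WT NeuN- they ran from 0.0446 for Pcdha1 to 0.463 ± 0.22 for Pcdha5, whose 3 libraries measured 0.282, 0.701 and 0.406 and so overlapped Pcdha8 at 0.413 ± 0.020. Pcdha9 and Pcdha11 were left out because 2 gene models share the name Pcdha11. The gamma members reached higher levels. In WT NeuN+, Pcdhga1 was lowest at 0.398 ± 0.057 and Pcdhgc5, whose interval holds the constant exons, highest at 3.07 ± 0.11 CPM per kb, followed by Pcdhgb7 at 2.32 ± 0.051. In WT NeuN- the order changed at the top: Pcdhgc3 led at 6.24 ± 0.43 CPM per kb, beside 1.42 ± 0.080 in NeuN+, above Pcdhgc5 at 4.01 ± 0.087 and Pcdhgb7 at 3.85 ± 0.23, which overlapped each other. Pcdhgc3 went from 4.17 ± 0.20% of the gamma reads in WT NeuN+ to 12.1 ± 0.53% in WT NeuN-. The count of BC037039 on the opposite strand came to 54.0% of the Pcdhgc3 interval in WT NeuN- and 39.9% in WT NeuN+. The rank of Pcdhgc3 in NeuN-, its rise and its share may thus rest partly on reads of BC037039. Beta genes ran from Pcdhb1 (0.0295 in NeuN+ and 0.0204 in NeuN-) to Pcdhb17 in NeuN+ (1.48 ± 0.092, beside Pcdhb20 at 1.32 ± 0.094) and Pcdhb9 in NeuN- (1.21 ± 0.10, beside Pcdhb17 at 1.15 ± 0.040). The median member measured 0.985 in alpha, 0.821 in beta and 1.53 CPM per kb in gamma in NeuN+, and 0.260, 0.656 and 2.43 CPM per kb in NeuN-.

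**Figure D3:**
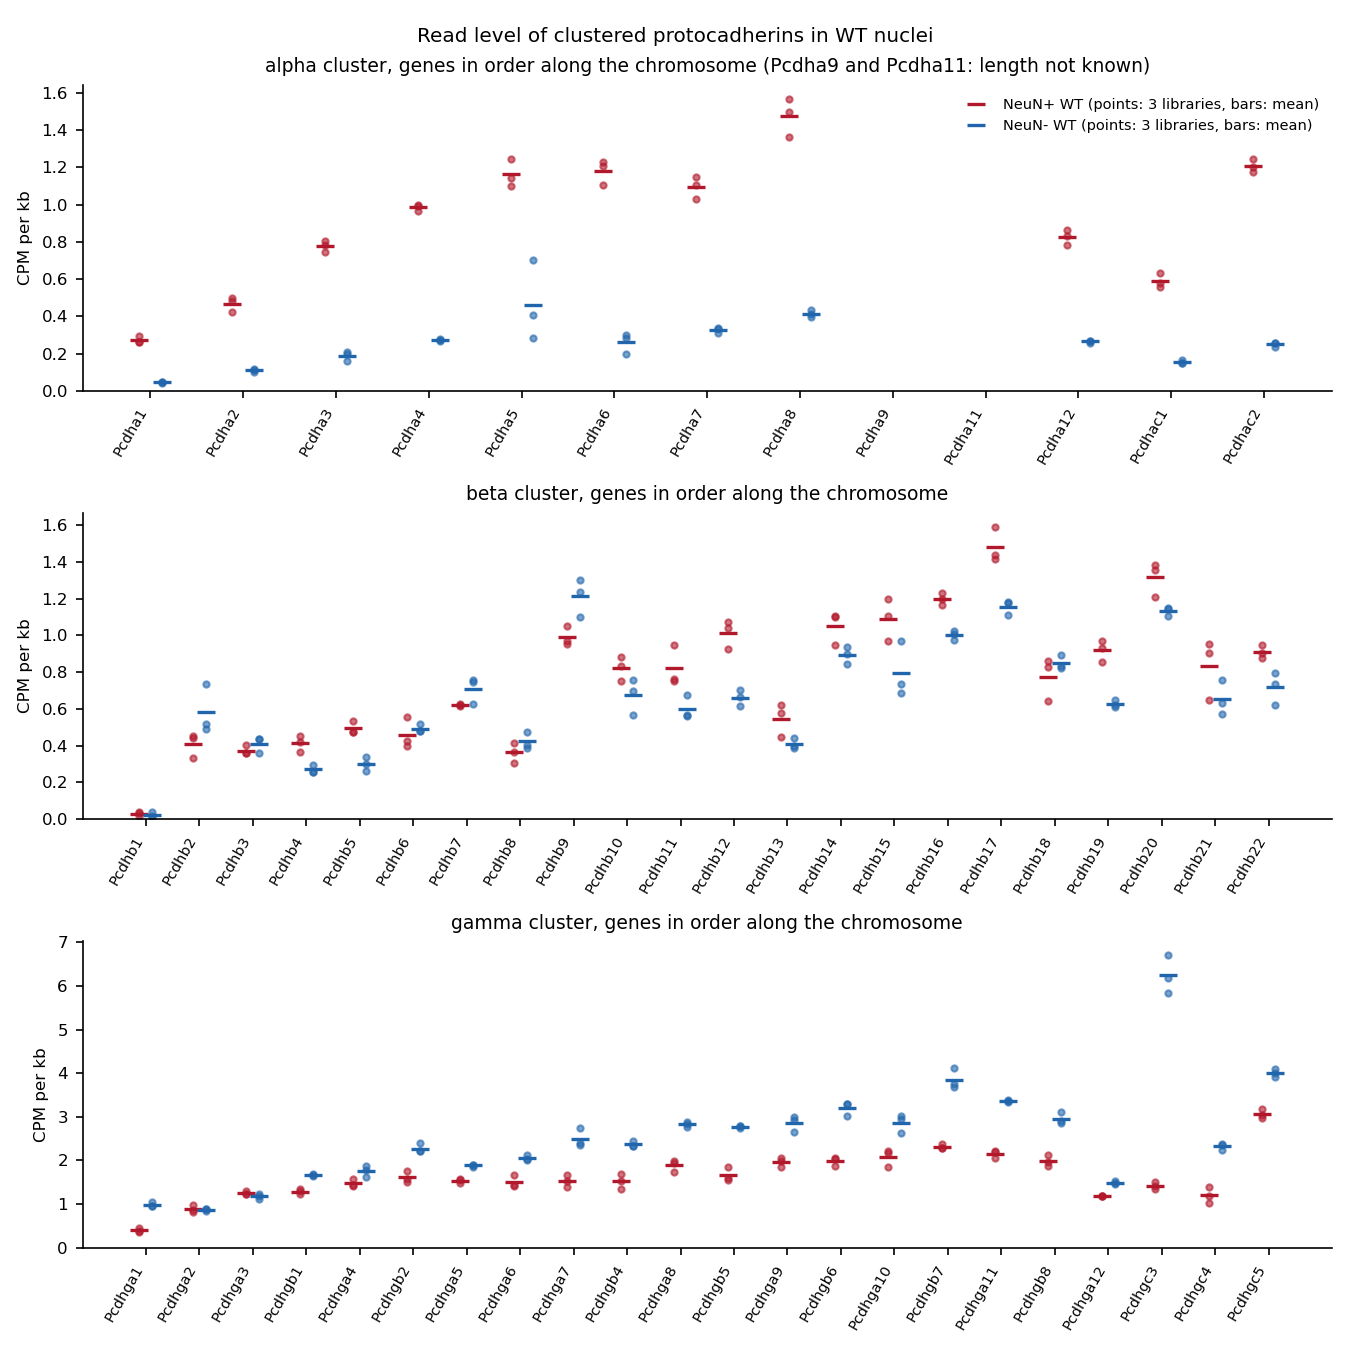
CPM per kb (vertical axes) of each member in WT, in chromosomal order (horizontal axes), NeuN+ in red and NeuN- in blue. Points are the 3 libraries and bars their mean, from intervals for alpha and gamma and gene counts for beta, with Pcdha9 and Pcdha11 left blank. Pcdhgc3 rises from 1.42 in NeuN+ to 6.24 in NeuN-, whereas every alpha member is lower in NeuN-. Its interval also holds reads that may belong to BC037039 on the opposite strand.

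Position in the cluster went with level. With the C-types left out, Spearman's rho between order along the cluster and CPM per kb in WT NeuN+ was 0.70 over 9 alpha members and 0.72 over 19 gamma members, and it was 0.67 and 0.76 in NeuN-. These points share libraries, and an interval holds the unspliced RNA of all starts before it. Beta genes, which do not share a common end (only Pcdhb21 and Pcdhb22 overlap), gave 0.75 in NeuN+ and 0.64 in NeuN- over 22 genes. Levels of the beta genes in the 2 fractions ran alike (rho 0.85). As the promoters of this locus are known for methylation, the CpG content of the first exon was set beside the level. The ratio of observed to expected CpG had a median of 0.652 in alpha, 0.386 in beta and 0.553 in gamma first exons. In beta that exon is nearly the whole gene (2588 to 8695 bases). In alpha it spans 2346 to 3323 bases and in gamma 2499 to 5426, so the clusters are not compared over like regions. Promoters themselves were not measured. Over the 22 beta genes the rho of this ratio with CPM per kb was -0.07 in NeuN+ and -0.17 in NeuN-. Over the 21 tested it was 0.20 with the difference between the fractions, all weak.

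No member was called between any mutant genotype and WT. All 3 comparisons in a cell fraction share the same WT libraries. In NeuN+, 0 of the 56 members tested passed an adjusted p under 0.05 with a log2 fold change above 0.5 in edgeR for Mutyh-/-, Ogg1-/- or DKO, beside 0.428, 0.574 and 0.302% of all genes called. In NeuN-, 0 of 56 passed beside 0.273, 0.229 and 0.116%. DESeq2 also called 0 in each, and so did edgeR on intervals. No member had an adjusted p under 0.05 at any fold in the deposited counts.

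**Figure D4:**
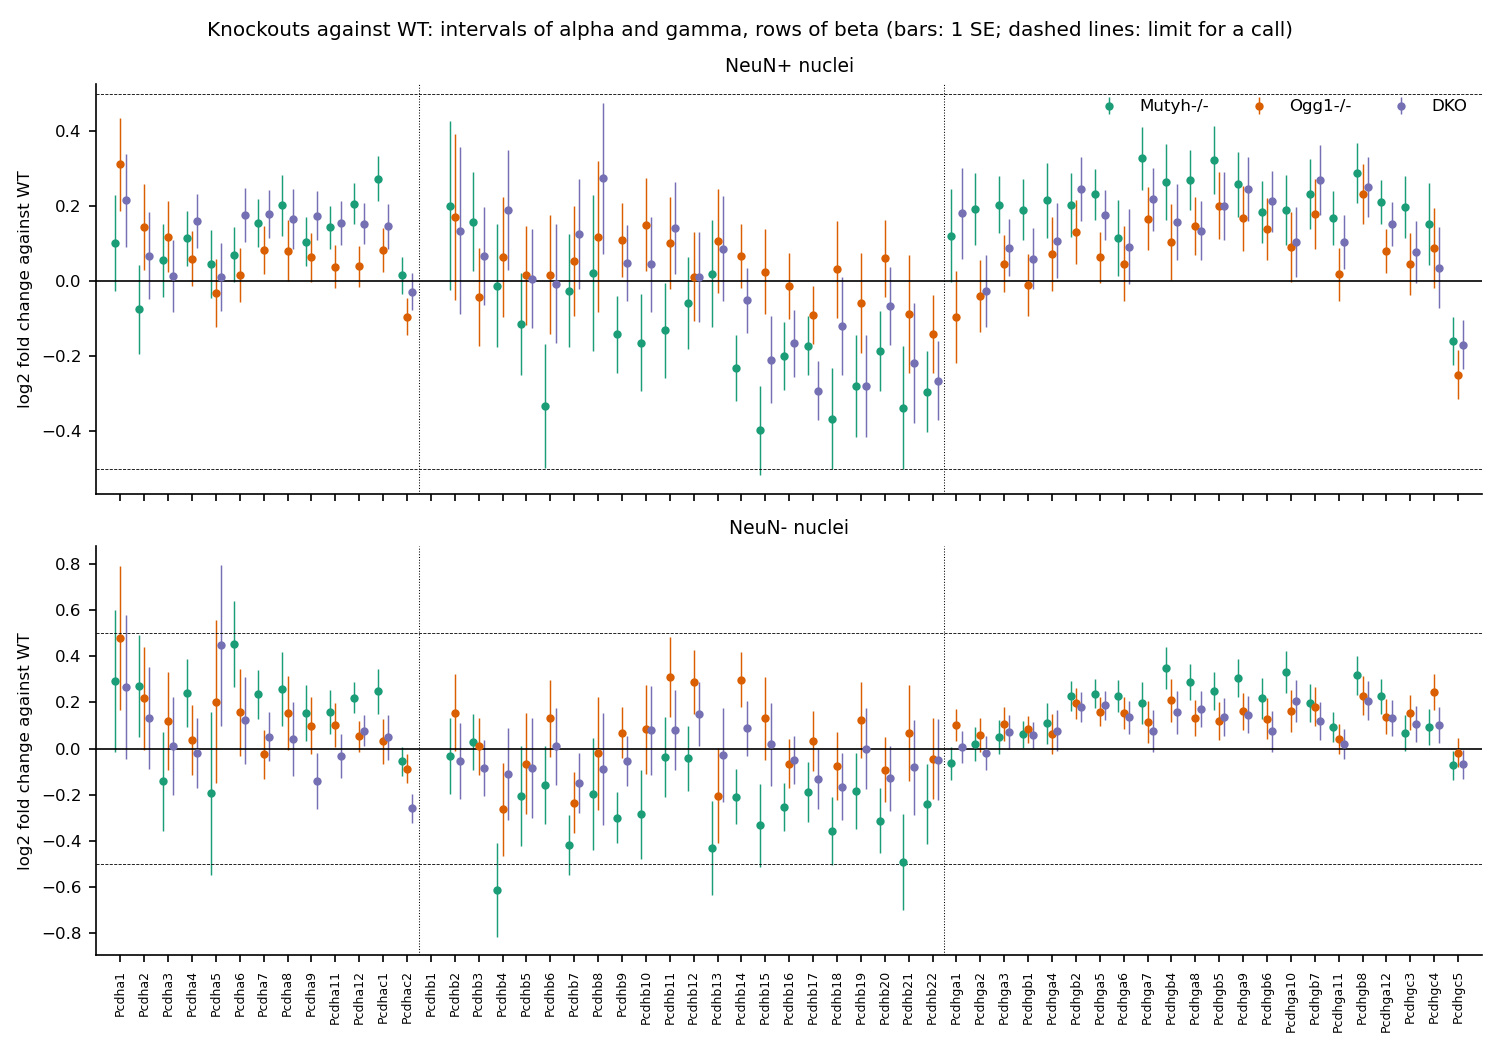
Log2 difference from WT (vertical axis) of each member (horizontal axis, chromosomal order) for the 3 mutant genotypes, from intervals for alpha and gamma and gene counts for beta, with NeuN+ and NeuN- in separate panels. Bars are 1 SE and dashed lines mark the limit of 0.5. In Mutyh-/- the beta genes lie mostly below 0 (medians -0.16 and -0.24) and the alpha and gamma intervals mostly above.

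The libraries labelled Mutyh-/- showed the widest departures below that threshold. At an unadjusted p under 0.05, 22 members were higher and 7 lower than WT in NeuN+ (beside 9.48 and 9.21% of all genes), and 19 were higher and 7 lower in NeuN- (beside 6.78 and 6.9%). The higher ones were all alpha (12 and 11) or gamma members (10 and 8), and the lower ones were beta genes (6 and 7) but for Pcdhgc5 in NeuN+. Nesting makes the alpha and gamma counts repeat each other. Intervals do not share read pairs, but an interval also holds unspliced RNA started further upstream, so neighbouring intervals are not independent. By intervals, 21 were higher and 7 lower in NeuN+ and 16 higher and 7 lower in NeuN-. The median log2 difference was 0.15 in alpha, -0.16 in beta and 0.11 in gamma in NeuN+, and 0.16, -0.24 and 0.12 in NeuN-, while that of all genes stayed within 0.01 of 0. By intervals the medians of alpha and gamma were 0.11 and 0.20 in NeuN+ and 0.23 and 0.21 in NeuN-. Of the 21 beta genes, 17 lay below 0 in NeuN+ and 20 in NeuN-. The beta genes past an unadjusted p of 0.05 were Pcdhb14, Pcdhb15, Pcdhb16, Pcdhb17, Pcdhb18 and Pcdhb22 in NeuN+ and Pcdhb4, Pcdhb7, Pcdhb9, Pcdhb16, Pcdhb18, Pcdhb20 and Pcdhb21 in NeuN-, so that Pcdhb16 and Pcdhb18 were in both.

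Pcdha12 had the smallest p among members higher in Mutyh-/- of NeuN+, with 160, 156 and 158 CPM against 149, 137 and 141 CPM in WT, all above (log2 0.15 ± 0.045 (SE), edgeR adjusted p = 0.106). Pcdhb15 had the smallest among those lower, with 2.21, 2.21 and 2.50 CPM against 3.36, 3.09 and 2.71 CPM, all below WT (-0.40 ± 0.12, adjusted p = 0.110). By intervals the smallest adjusted p was that of Pcdhac1, at 38.3, 37.5 and 38.2 CPM against 33.9, 29.7 and 31.0 CPM (0.27 ± 0.06, adjusted p = 0.0515). In NeuN-, Pcdha6 on deposited counts measured 71.8, 67.1 and 64.3 CPM against 58.0, 59.2 and 61.9 CPM (0.17 ± 0.068, adjusted p = 0.288). Pcdhb7 was lower in every library, at 1.85, 1.69 and 2.08 CPM against 2.66, 2.61 and 2.19 CPM (-0.42 ± 0.13, adjusted p = 0.217). Pcdhb4, named after its values were seen, lay at 0.736, 0.651 and 0.590 CPM against 0.952, 1.11 and 0.959 CPM (-0.61, adjusted p = 0.232). None of these passed the correction, although the mutant and WT libraries of each did not overlap.

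The beta sum did not overlap WT in either fraction of Mutyh-/-, at 63.1 to 69.7 CPM against 70.4 to 79.1 CPM in NeuN+ and at 50.0 to 59.2 CPM against 61.9 to 66.5 CPM in NeuN-. The exact permutation test over the libraries, two-sided, gave p = 0.1 in each, the smallest that 3 against 3 allows (0.1286 after Benjamini-Hochberg adjustment over the 18 such tests made). In Ogg1-/- and DKO the beta sums overlapped WT (exact permutation p = 0.9 and 0.7 in NeuN+, 0.2 and 0.8 in NeuN-). Replicate 1 of DKO stood apart from its group in both fractions, at 82.1 CPM beside 68.5 and 65.9 in NeuN+ and at 76.0 CPM beside 60.3 and 51.3 in NeuN-. Without it the beta median of DKO in NeuN+ went from 0.01 to -0.10, and without replicate 3 that of NeuN- went from -0.05 to 0.09.

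In Ogg1-/- libraries of NeuN+, 0 members were higher and 3 lower on deposited counts at an unadjusted p under 0.05 (beside 5.01 and 7.33% of all genes), the 3 being the nested C-types Pcdhgc3, Pcdhgc4 and Pcdhgc5. Pcdhgc5 measured 58.3, 60.8 and 56.1 CPM against 66.3, 71.3 and 68.1 CPM in WT, without overlap (log2 -0.25 ± 0.065 (SE), edgeR adjusted p = 0.0841). Pcdhb10, with the smallest p of those higher, stood at 0.15 ± 0.12 (adjusted p = 0.687). In NeuN-, Pcdhb14 was the 1 member higher on deposited counts, at 10.2, 9.44 and 9.25 CPM against 8.16, 7.82 and 7.35 CPM (0.30 ± 0.12, adjusted p = 0.344), and none was lower (beside 5.75 and 6.08%). The medians of alpha, beta and gamma were 0.02, 0.03 and 0.00 in NeuN+ and 0.03, 0.03 and 0.10 in NeuN-. By intervals, 3 members were higher in NeuN+ (Pcdha1, Pcdhgb5 and Pcdhgb8) and only Pcdhgc5 lower, while Pcdhgc3 and Pcdhgc4 did not pass. In NeuN-, 6 gamma intervals (Pcdhgb2, Pcdhga5, Pcdhgb4, Pcdhgb7, Pcdhgb8 and Pcdhgc4) were higher besides Pcdhb14, and none was lower. The interval medians of alpha and gamma were 0.06 and 0.09 in NeuN+ and 0.10 and 0.14 in NeuN-.

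In DKO, 10 members were higher and 4 lower in NeuN+ on deposited counts (beside 5.98 and 7.51%), all 10 in alpha. By intervals, 16 were higher, 7 in alpha and 9 in gamma, and 3 lower. Among the members higher on deposited counts, Pcdha6 had the smallest p, at 232, 240 and 238 CPM against 225, 209 and 216 CPM (log2 0.11, edgeR adjusted p = 0.279). Pcdhb17 was lower in every library, at 5.88, 5.87 and 5.34 CPM against 7.39, 6.71 and 6.60 CPM (-0.29 ± 0.078, adjusted p = 0.121). In NeuN- no member was higher and 1 lower on deposited counts (beside 6.05 and 6.31%), and 5 gamma intervals (Pcdhgb2, Pcdhga5, Pcdhga8, Pcdhga10 and Pcdhgb8) were higher and 1 lower. The lower one was Pcdhac2 in both, at 8.68, 9.60 and 9.44 CPM against 10.4, 11.3 and 11.3 CPM, without overlap (-0.26 ± 0.063, adjusted p = 0.154). The smallest p among members higher on deposited counts was that of Pcdhga3, at 0.09 (adjusted p = 0.586). The interval medians of alpha and gamma were 0.16 and 0.14 in NeuN+ and 0.05 and 0.11 in NeuN-, beside 0.11 and 0.06 and -0.02 and 0.07 on deposited counts.

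Among the intervals, 1 member had an unadjusted p under 0.05 in all 6 comparisons with WT, and it is named after its values were seen. In single comparisons, 5.01 to 9.48% of all genes were higher at that limit. The share of all genes that pass it in all 6 is not given here, so this count has no background beside it. Pcdhgb8, which the annotation gives as a polymorphic pseudogene, measured 7.10, 7.43 and 7.99 CPM in WT NeuN+. It measured 9.44, 9.12 and 8.87 CPM in Mutyh-/-, 8.85, 9.72 and 8.21 CPM in Ogg1-/- and 8.46, 9.05 and 9.57 CPM in DKO. All 9 mutant libraries were above the WT libraries (log2 0.29 ± 0.081, 0.23 ± 0.080 and 0.25 ± 0.080 (SE), edgeR adjusted p = 0.0936, 0.215 and 0.186). In NeuN- it measured 10.8 to 11.7 CPM in the 3 WT libraries, 14.5, 14.3 and 13.2 CPM in Mutyh-/-, 13.5, 13.8 and 12.3 CPM in Ogg1-/- and 11.4, 13.0 and 14.5 CPM in DKO. There 1 DKO library overlapped WT, and the log2 differences were 0.32, 0.23 and 0.21 (adjusted p = 0.171, 0.302 and 0.356). Pcdhgb8 is one of the members crossed by Gm26672 on the opposite strand, and all 3 genotypes are set against the same WT libraries. Pcdhgc5, the last member of the cluster, lay below WT in NeuN+ of each genotype (-0.16, -0.25 and -0.17, adjusted p = 0.206, 0.0841 and 0.267) and nearer to WT in NeuN- (-0.07, -0.02 and -0.07).

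No member's response to a genotype was called different between NeuN+ and NeuN- by the interaction test of edgeR, beside 0.0209, 0.0537 and 0.0567% of all genes for Mutyh-/-, Ogg1-/- and DKO. At an unadjusted p under 0.05 the members were Pcdhb4 for Mutyh-/- (log2 0.59, adjusted p = 0.527), Pcdhgc3, Pcdhgc4 and Pcdhgc5 for Ogg1-/- (-0.24, -0.22 and -0.22, adjusted p = 0.604, 0.627 and 0.639) and Pcdhac2 and Pcdhac1 for DKO (0.24 and 0.17, adjusted p = 0.288 and 0.512), beside 8.57, 7.09 and 9.4% of all genes. By intervals, Pcdhgc5 remained for Ogg1-/- (-0.22, adjusted p = 0.642), Pcdhgc3 and Pcdhgc4 not among them, and the members for DKO were Pcdhac2 (0.24, adjusted p = 0.288) and Pcdha9 (0.32, adjusted p = 0.456). DESeq2 also called 0.

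A smaller share of the alpha and gamma reads fell in the last interval in every mutant library than in WT. This pattern was noticed after the values were seen. That interval holds the constant exons, and in alpha it also overlaps Gm10544 on the opposite strand. The last interval of gamma held 23.0, 23.9 and 22.3% of the cluster's reads in WT NeuN+, and 17.4 to 20.9% in the 9 mutant libraries. In NeuN- it held 19.9, 20.1 and 19.9% in WT and 16.3 to 19.1% in the mutant libraries. For alpha the WT libraries held 21.9, 22.5 and 21.4% in NeuN+ and 16.2, 16.4 and 16.2% in NeuN-, and the mutant libraries 19.0 to 21.2% and 12.7 to 15.8%. All 9 mutant libraries were below all 3 WT libraries in both clusters and both fractions. The 3 genotypes share these WT libraries, and each comparison gave an exact permutation p of 0.1, the smallest possible (0.1286 after adjustment over the 18 tests). Mean differences from WT in gamma were -4.35, -3.95 and -3.69 percentage points for Mutyh-/-, Ogg1-/- and DKO in NeuN+ and -2.78, -1.75 and -1.98 in NeuN-. Without replicate 3 of DKO the last of these was -1.14.

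**Figure D5:**
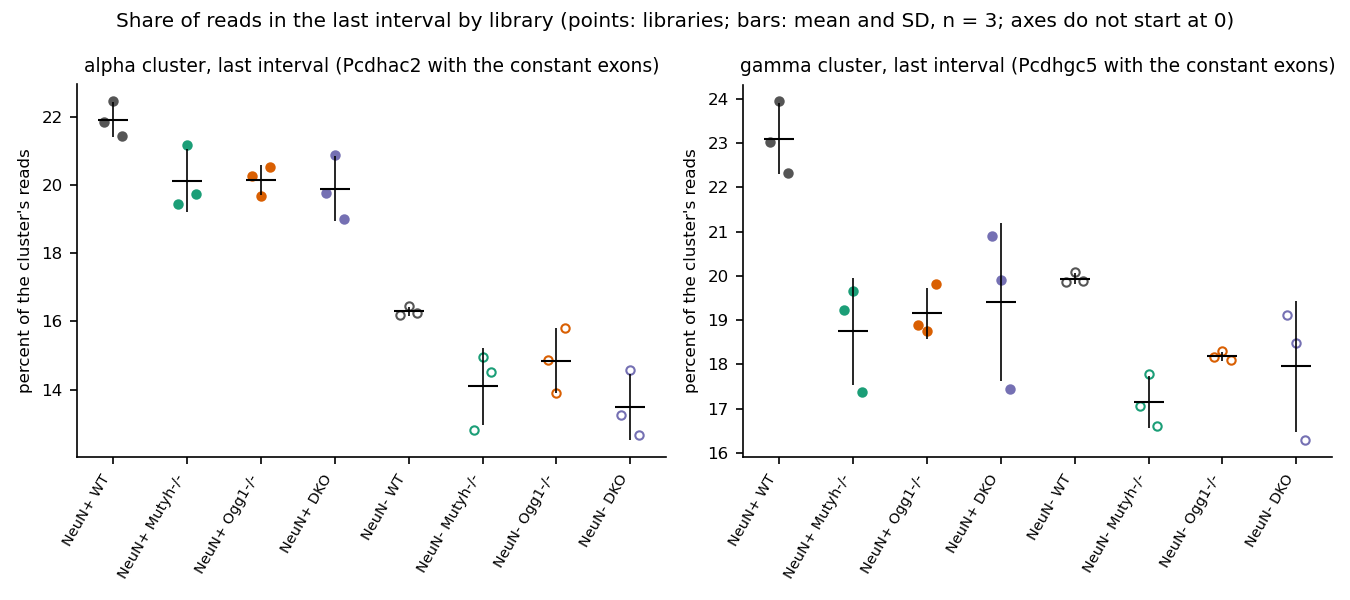
Percent of each cluster's reads in the last interval, which holds the constant exons (vertical axes, not starting at 0), for each library by genotype and fraction (horizontal axis). Points are libraries. WT libraries lie above all 9 mutant libraries in every panel, for gamma NeuN+ at 22.3 to 23.9% against 17.4 to 20.9%.

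The RNA of ribosomal protein genes, which are short and spliced, was lower on average in each mutant genotype. The 86 ribosomal protein genes took 0.0941 ± 0.0025% of all counts in WT NeuN+ and 0.0861, 0.0777 and 0.079% on average in Mutyh-/-, Ogg1-/- and DKO, and 0.1177 ± 0.0021% in WT NeuN- beside 0.1066, 0.104 and 0.1051%. The median log2 difference of the 84 tested was -0.18, -0.34 and -0.28 in NeuN+ and -0.12, -0.20 and -0.18 in NeuN-. This difference was widest in Ogg1-/- and narrowest in Mutyh-/- in both fractions. The gamma share differed most in Mutyh-/- and the alpha share most in DKO, in both fractions. For alpha the mean differences from WT were -1.80, -1.76 and -2.02 percentage points for Mutyh-/-, Ogg1-/- and DKO in NeuN+. In NeuN- they were -2.19, -1.44 and -2.80. Any link between ribosomal protein RNA and the share of the last interval was not tested. In NeuN-, markers of other cell types also differed between the groups. The 5 oligodendrocyte markers summed to 5909 to 6644 CPM in WT and 5504 to 6764 CPM in Mutyh-/-, and without overlap with WT to 5044 to 5666 CPM in Ogg1-/- and 4499 to 5577 CPM in DKO. The 6 astrocyte markers summed to 2788 to 3314 CPM in WT and to 2852 to 3744, 3246 to 4111 and 3467 to 3627 CPM in Mutyh-/-, Ogg1-/- and DKO, and 1 of them, Aldh1l1, was called higher in Ogg1-/- (log2 0.52, edgeR adjusted p = 0.0483). The sum of the 8 neuronal markers overlapped WT (612 to 737 CPM) in each genotype, at 588 to 647, 564 to 677 and 524 to 648 CPM. Each of the 8 nevertheless had a log2 difference below 0 in every genotype. Their medians were -0.16, -0.24 and -0.27 for Mutyh-/-, Ogg1-/- and DKO, beside -0.01, 0.00 and 0.01 over all genes. None was called, and Slc17a7 came nearest in DKO (-0.48, edgeR adjusted p = 0.0852). The 5 choroid plexus markers ranged from 40.1 to 67.0 CPM in WT, 24.8 to 29.5 CPM in Mutyh-/-, 15.6 to 101 CPM in Ogg1-/- and 13.98 to 221 CPM in DKO. None of these markers was at 0 in all 3 libraries of any group, and their part in the NeuN- differences of the members was not tested.

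Genes that act on or beside the clusters were listed with earlier results of these data known. Of 25 locus regulators, among them Ctcf, the cohesin subunits and the DNA methyltransferases, 0 were called in any comparison with WT by edgeR. Over all genes, 0.116 to 0.574% were called in these comparisons. At an unadjusted p under 0.05 stood 1 to 5 regulators, beside 5.01 to 9.48% of all genes higher and 6.08 to 9.21% lower. Dnmt3b, which methylates the promoters, came nearest in Mutyh-/- of NeuN+ (log2 -0.73 ± 0.16, adjusted p = 0.0542), and Rad21, a cohesin subunit, in DKO of NeuN+ (-0.24 ± 0.057, adjusted p = 0.0855). Between the fractions of WT, Tet1 and Dnmt3b were the 2 called, both higher in NeuN- (log2 -1.65 and -1.63), beside 21.6% of all genes called in that direction. Of 12 cytoplasmic partners and 12 nonclustered protocadherins, 0 were called in any comparison with WT by edgeR. At an unadjusted p under 0.05 there were 1 to 5 and 0 to 2, beside the same shares of all genes. Between the fractions, 4 partners were called higher in NeuN+, led by Cyfip2 of the WAVE complex (1.93), and 4 nonclustered protocadherins higher in NeuN+ and 3 higher in NeuN-, with Pcdh19 at 2.66 and Pcdh11x at -1.86, beside the same 21.3 and 21.6% of all genes. Of 13 genes that flank or lie between the clusters, Zmat2 was called lower in NeuN+ of Ogg1-/- (-0.58, adjusted p = 0.0268) and DKO (-0.56, adjusted p = 0.0441), and none in the other 4 comparisons with WT, beside the 0.116 to 0.574% of all genes called in these comparisons.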

How the data were processed

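The authors sequenced nuclear RNA of sorted NeuN+ and NeuN- nuclei (24 libraries), aligned read pairs with HISAT2 2.1.0 to GRCm38/mm10 and counted properly aligned pairs per gene with featureCounts against Ensembl 102. Per the labels and tables, the deposited values are raw counts of read pairs, with no pooling of libraries. The settings for strand and overlapping features are not given in the sources used here. Total counts of 56563586 to 96192142 per library set the precision, and Pcdhb1 was the only member too low to test.

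Members and gene lists were chosen with earlier results of these data known. The counts were fitted over all genes with edgeR 4.0.16 in R 4.3.3 (filterByExpr, TMM factors, quasi-likelihood test, Benjamini-Hochberg adjustment). Each fraction was fitted with its 12 libraries for comparisons with WT (30132 genes in NeuN+ and 31863 in NeuN-), and all 24 libraries were fitted as 8 groups for NeuN+ against NeuN- and for interactions (33523 genes). A call needed an adjusted p under 0.05 and a log2 fold change above 0.5 (genotypes), above 1 (fractions) or of any size (interactions). Named members were those with the smallest p in each direction of each comparison with WT, the 3 called with the widest difference between the fractions, the C-types, and the highest and lowest of each cluster. Levels are CPM with the TMM factors of the 24 libraries. Positions came from GENCODE vM21 on GRCm38. Counts simulated with known changes, from the mean levels of the real genes and a single dispersion for all genes, were used to test the fit. Alternatives were other size factors, DESeq2 1.42.0, other filters, a replicate block, fewer samples, other thresholds, leaving out each library and, added after the data were seen, interval counts. No sequences are shown.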

Additional observations from a re-analysis of the deposited data

How the results depend on the processing

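The number of members called in a comparison was counted 672 times in fits that left out 1 library. Each of these counts kept its value or stayed within 1.5 times of it. So did 211 counts with another setting, while 16 moved further, which came from a stricter limit or from intervals. With a log2 difference above 2, the members higher in NeuN+ were 2, 2, 2 and 3 in WT, Mutyh-/-, Ogg1-/- and DKO, and 0 were higher in NeuN- of Ogg1-/-. With interval counts, 2, 2, 3 and 3 were higher in NeuN-. With interval counts and a log2 difference above 2, 5, 3 and 5 were higher in NeuN+ of WT, Mutyh-/- and Ogg1-/-, and 1 was higher in NeuN- of each genotype. The Pcdhgc4 interval passed the limit in WT without replicate 2 of NeuN+ (log2 -1.08).

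Medians near 0 changed sign without 1 library in several comparisons of Ogg1-/- and DKO with WT, such as gamma of Ogg1-/- in NeuN+ (0.00 to -0.04). The alpha median of DKO in NeuN- went from -0.02 to 0.05 with intervals. The medians of Mutyh-/- did not change sign under any alternative run. No direction of a called member reversed.

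Replicate numbers were not taken as pairs. Same-numbered libraries of other genotypes had a correlation of deviations over 0.1 in 4 of 18 pairs in NeuN+ and 5 of 18 in NeuN-. Between NeuN+ and NeuN- of 1 genotype it was over 0.1 in 8 of 12 pairs. There, 11 of 12 NeuN+ libraries were closest to their own number. The fit of 24 libraries, used for NeuN+ against NeuN- and for interactions, did not take this link between the fractions into account. With the replicate block, 0 members were called in each comparison with WT, as without it, and 13 were higher in NeuN+ of WT.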
